A study of Homo sapiens with 4 samples.

Results

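The STEAP metalloreductases are a family of membrane proteins with 4 members, STEAP1, STEAP2, STEAP3 and STEAP4, and the peaks around their genes were examined in LNCaP cells with 3 libraries from chromatin immunoprecipitation and sequencing. Each member was given a window of its gene span in the GRCh37/hg19 genome build and 50 kb on either side, and every deposited peak that overlapped a window was taken. The windows held 24 of 57623 H3K27Ac peaks without hormone, 23 of 60752 H3K27Ac peaks with hormone and 8 of 20955 TCF7L2 peaks, which is 55 of 139330 peaks in all around 4 of 20136 protein-coding genes. LNCaP is an established androgen-responsive line of human prostate cancer, H3K27Ac (acetylation of lysine 27 of histone H3) marks active promoters and enhancers, and TCF7L2 is a transcription factor at the end of the Wnt pathway. For H3K27Ac, cells at passage 20 were kept in RPMI with charcoal-stripped serum, which is depleted of androgen, and then received either ethanol vehicle or 10 nM of the androgen dihydrotestosterone (DHT) for 4 h. For TCF7L2, cells at passage 15 grew in RPMI with 10% fetal bovine serum that had not been stripped. An input library of the same passage and serum as the TCF7L2 library was not analysed here. Each condition had 1 library, so that no difference below has a replicate check, and the intervals given are exact 95% intervals that cover counting error only.

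STEAP proteins carry electrons across membranes and reduce iron and copper ions, which is the form in which carrier proteins take these metals into the cell. STEAP2, STEAP3 and STEAP4 have a cytoplasmic domain that binds NADPH as the electron source, and STEAP1 lacks it. STEAP1 was discovered as a cell surface antigen of prostate epithelium and is abundant in prostate cancer, STEAP3 reduces iron released from transferrin in endosomes, and STEAP4 is known in prostate and fat cells as a gene that responds to hormones and inflammation.

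The label of the cells was checked at genes that define prostate luminal epithelium. All 10 of 10 luminal genes had an H3K27Ac peak over a start in both lists, whereas 0 of 3 basal and 0 of 3 leukocyte genes had one, and 2 of 3 stromal genes and the 1 endothelial gene that could be matched did. At KLK3, which encodes prostate-specific antigen and is induced by androgen, the tallest peak within 50 kb went from 97 tags without DHT to 180 tags with it, and at FKBP5, another androgen-induced gene, from 73 to 134 tags. The tallest KLK3 peaks of the lists lay at different places, and at TMPRSS2, the last of the 3 androgen-induced genes checked, the tallest peak had 106 and 125 tags and stayed within the fold. The height of a peak is the largest number of sequenced tags piled up in it, and heights ran from 9 to 212 tags with vehicle (median 22), from 10 to 213 with DHT (median 23) and from 15 to 229 for TCF7L2 (median 31). The lists do not hold the number of reads behind them. A DHT to vehicle ratio was therefore divided by 1.069, the median over 50368 pairs of overlapping peaks, and a value was called taller or lower past a fold of 1.5. In a bulk sample, less of the mark per cell and fewer cells that carry it cannot be told apart.

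STEAP1 (chr7:89783770-89794143, plus strand), STEAP2 (chr7:89796904-89867451, plus strand) and STEAP4 (chr7:87900207-87936209, minus strand) lie on chromosome 7, and STEAP3 (chr2:119981407-120023228, plus strand) lies on chromosome 2. The first annotated start of STEAP2 follows the end of STEAP1 by 2.76 kb, so that their windows overlap and share peaks, and STEAP4 lies 1.85 Mb away. The 250 bases before the start of each member are shown because the members differed in whether acetylation covered this place. They come from chr7:89783520-89783769 for STEAP1, chr7:89840750-89840999 for STEAP2, chr2:119981157-119981406 for STEAP3 and, on the minus strand, chr7:87936210-87936459 for STEAP4, and capitals mark each CG.
STEAP1: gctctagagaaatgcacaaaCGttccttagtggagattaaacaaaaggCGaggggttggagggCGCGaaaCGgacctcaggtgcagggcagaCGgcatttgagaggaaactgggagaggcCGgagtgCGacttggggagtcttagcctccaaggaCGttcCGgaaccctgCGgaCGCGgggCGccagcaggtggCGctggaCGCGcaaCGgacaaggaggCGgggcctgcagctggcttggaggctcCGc
STEAP2: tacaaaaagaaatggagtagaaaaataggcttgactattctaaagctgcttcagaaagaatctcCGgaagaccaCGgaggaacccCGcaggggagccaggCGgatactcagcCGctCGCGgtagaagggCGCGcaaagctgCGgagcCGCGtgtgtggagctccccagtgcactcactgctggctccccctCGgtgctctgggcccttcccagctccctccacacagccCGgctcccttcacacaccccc
STEAP3: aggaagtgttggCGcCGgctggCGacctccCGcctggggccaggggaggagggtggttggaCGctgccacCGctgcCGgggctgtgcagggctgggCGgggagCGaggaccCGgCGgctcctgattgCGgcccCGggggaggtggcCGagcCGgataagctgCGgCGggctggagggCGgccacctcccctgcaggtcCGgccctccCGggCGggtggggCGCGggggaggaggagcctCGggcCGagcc
STEAP4: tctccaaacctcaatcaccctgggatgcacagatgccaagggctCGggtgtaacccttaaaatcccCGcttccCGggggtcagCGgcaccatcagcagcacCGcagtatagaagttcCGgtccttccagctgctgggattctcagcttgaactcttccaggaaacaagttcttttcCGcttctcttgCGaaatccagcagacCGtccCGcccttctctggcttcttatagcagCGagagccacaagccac
The STEAP3 stretch was the richest in CG of the 4, with 25 CG and 78.4% G or C, and STEAP4 was the poorest, with 11 CG and 55.6%. STEAP1 had 20 CG and 62.8%, and STEAP2 had 14 CG and 60.4%. Counted before the main annotated start, where the median of 18921 genes is 18 CG, the values were 21 for STEAP1, 21 for STEAP2, 25 for STEAP3 and 11 for STEAP4. CG content did not follow acetylation among the 4 members. STEAP1 and STEAP2 had an H3K27Ac peak over a start in both lists and STEAP3 and STEAP4 had one in neither, where 56.3% of all protein-coding genes had one with vehicle and 57.5% with DHT (1000 bp before to 100 bp after any annotated coding start).

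The levels of H3K27Ac set STEAP1 and STEAP2 far apart from the other two members. The tallest vehicle peak in the windows of both STEAP1 and STEAP2 was the same peak of 179 tags (154 to 207), which ranked 23 of 57623, and its DHT counterpart of 198 tags (171 to 228) ranked 7 of 60752. For STEAP3 the tallest peak reached 63 tags (48.4 to 80.6) in the vehicle list and 74 tags (58.1 to 92.9) in the DHT list. For STEAP4 it was 62 tags (47.5 to 79.5) and 89 tags (71.5 to 110). Over all genes the medians were 55 tags for vehicle and 62 for DHT, which the intervals of STEAP3 and STEAP4 held, except that STEAP4 with DHT stood above. The intervals of these 2 members overlapped each other in both lists. STEAP4 moved from percentile 56.6 to percentile 73.9 of all genes between the lists, and STEAP3 from percentile 57.6 to percentile 61.1.

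The share of each window that peaks covered also set STEAP1 and STEAP2 above the other two members. H3K27Ac peaks covered 64% of the 170.5 kb STEAP2 window with vehicle and 60.7% with DHT, and only 5 and 9 of 20136 genes had a larger share. They covered 40.6% and 37.2% of the STEAP1 window, which is 110.4 kb long. For STEAP3 the shares were 5.77% and 7.83%, and for STEAP4 7.45% and 11.1%, where the medians over genes were 6.17% and 6.64%. STEAP4 with DHT stood at percentile 71.5 of all genes by this share, and at percentile 57.8 with vehicle. The number of peaks did not show this, since STEAP1 had 7 and 7, STEAP2 11 and 9, STEAP3 6 and 6, and STEAP4 7 and 8 peaks with vehicle and DHT, respectively. The acetylated area in the windows of STEAP1 and STEAP2 was wide because single peaks were wide, the widest being 46.9 kb with vehicle, which only 24 vehicle peaks exceeded. That peak reaches past STEAP2 into the following gene CFAP69. A further vehicle peak of 22.1 kb, counted in the STEAP2 window, lies within CFAP69.

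Along STEAP1 and STEAP2, acetylation over the starts stayed level with DHT, while 2 of the 3 tall peaks in the STEAP2 intron between these starts were lower past the fold. A peak of 17 kb (chr7:89780730-89797709) covered the whole STEAP1 gene and the first STEAP2 start and had 163 tags with vehicle and 175 with DHT, a scaled ratio of 1.0 (0.81 to 1.3). The tallest peak (chr7:89835960-89882909) covered the main STEAP2 start, the rest of the gene and a start of the neighbour CFAP69, and its 179 and 198 tags gave a scaled ratio of 1.03 (0.84 to 1.27). No peak of the DHT list exceeded 213 tags, so that neither start peak could have been called taller.

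The 3 tall peaks of the STEAP2 intron, which also lie in an intron of the antisense gene STEAP2-AS1, all had fewer tags with DHT. The one at chr7:89820810-89825039 fell from 116 to 73 tags, a scaled ratio of 0.59 (0.43 to 0.80). The one at chr7:89826660-89831699 went from 152 to 106 tags, a scaled ratio of 0.65 (0.50 to 0.84). The last, at chr7:89806500-89813369, had 172 and 153 tags, with a scaled ratio of 0.83 (0.66 to 1.04), and was within the fold. The first of these peaks stayed past the fold without scaling, and the second did not. Among the 2116 overlapping pairs with at least 200 tags over both lists, 2.08% were lower and 3.12% taller past the fold, and both the 152-tag peak and its 106-tag counterpart belong to this class while the 116-tag and 73-tag pair falls just short of it.

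The remaining peaks of this stretch were small or lay in CFAP69, a gene of the cilium and sperm tail that follows STEAP2. A peak in the STEAP2 intron went from 23 to 16 tags (scaled ratio 0.65, 0.32 to 1.29), and one before STEAP1, in an intron of STEAP2-AS1, from 20 to 11 tags (0.51, 0.22 to 1.13). Within CFAP69 a wide peak had 163 and 144 tags (0.83, 0.66 to 1.04) and a small one 20 and 14 tags (0.65, 0.31 to 1.36). A vehicle peak of 9 tags in CFAP69 had no DHT counterpart, which held for 11.8% of vehicle peaks. A further vehicle peak of 171 tags touched the end of the STEAP2 window, and the DHT peaks of 11 and 143 tags that overlapped it began beyond the window and were not counted. Of the 9 shared peaks around STEAP1 and STEAP2, 0 were taller and 5 lower past the fold, with a median scaled ratio of 0.65, where 10.2% of all shared peaks were lower and 11.3% taller past it. The tallest peak of the whole DHT list had 213 tags. Shared peaks here with 152 tags or more with vehicle could therefore not be called taller, only lower. Without scaling 2 of the 5 remained past the fold (116 to 73 and 20 to 11 tags), and at a fold of 2 there were 0. The small peaks among the 5 had intervals that included 1.

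A near copy of part of STEAP1 exists on the other arm of chromosome 7 at STEAP1B, a paralog that is no member here. Of the DHT peak over STEAP1, 66.2% aligned to one stretch of 10.4 kb by STEAP1B (chr7:22531669-22542058) with 94.7% identity. This stretch held 1 peak of 75 tags with vehicle and 1 of 75 tags with DHT, and the tallest peak within 50 kb of STEAP1B had 120 and 87 tags, a scaled ratio of 0.68. How the authors placed reads that fit both copies is not given in the sources used here, and its part in the height over STEAP1 was not tested. The peaks of the STEAP2 intron and main start lie outside the part that aligned, but they were not themselves compared with STEAP1B.

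STEAP3 was weakly acetylated at the gene itself, and the peaks that differed with DHT lay downstream of it. The only H3K27Ac peak inside STEAP3, in an intron, had 11 tags with vehicle and 10 with DHT, near the lowest height in each list. The peak nearest downstream, between genes, had 46 and 42 tags (scaled ratio 0.85, 0.55 to 1.33). The next, centred 68.5 kb after the STEAP3 start (DHT peak chr2:120048690-120051059), rose from 12 to 49 tags, a scaled ratio of 3.82 (2.0 to 7.89), and from 1.05 to 2.37 kb in width. One in an intron of the following gene C2orf76 (DHT peak chr2:120060810-120063839) rose from 11 to 34 tags, a scaled ratio of 2.89 (1.43 to 6.33), and from 1.14 to 3.03 kb in width. Both were past the fold without scaling too, at percentiles 99.3 and 98.3 of all shared peaks. No DHT peak had fewer than 10 tags, so that shared peaks with 11 or 12 tags with vehicle could only be called taller, not lower. The percentiles are over shared peaks of all heights. The tallest peak of the STEAP3 window, 63 and 74 tags, lay at the window's edge in C2orf76, as did one of 15 and 18 tags, so that C2orf76 shares 3 of the 6 DHT peaks counted for STEAP3. The start of C2orf76, 51.2 kb beyond the window, had a peak of 95 tags with vehicle and 127 with DHT.

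STEAP4 gained a peak with DHT close behind its start, and its other peaks stayed within the fold. The peak in the STEAP4 intron at chr7:87931860-87935189, centred 2.68 kb after the start, had 46 tags (33.7 to 61.4) with DHT and overlapped no vehicle peak. DHT peaks without a vehicle counterpart made up 17.1% of the list, but their median height was 13 tags, and only 160 of 10384 (1.54%) reached 46 tags. The lists hold called peaks only, the lowest of 9 tags with vehicle, so that vehicle signal below the calling threshold at this place was not measured here. The tallest STEAP4 peak, which overlaps an exon 25.6 kb after the start with DHT, had 62 tags with vehicle and 89 with DHT, a scaled ratio of 1.34 (0.96 to 1.89), and widened from 2.58 to 3.96 kb. Of the 7 shared peaks around STEAP4, 5 had a scaled ratio above 1 and 2 below it, and 0 passed the fold either way (1 without scaling). The 2 below 1 were the intron peaks of 26 and 21 tags and of 16 and 13 tags, both with a ratio of 0.76. The peaks over 2 starts of SRI, the neighbour that encodes the calcium-binding protein sorcin, had 33 and 43 tags and 19 and 26 tags.

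**Figure D1:**
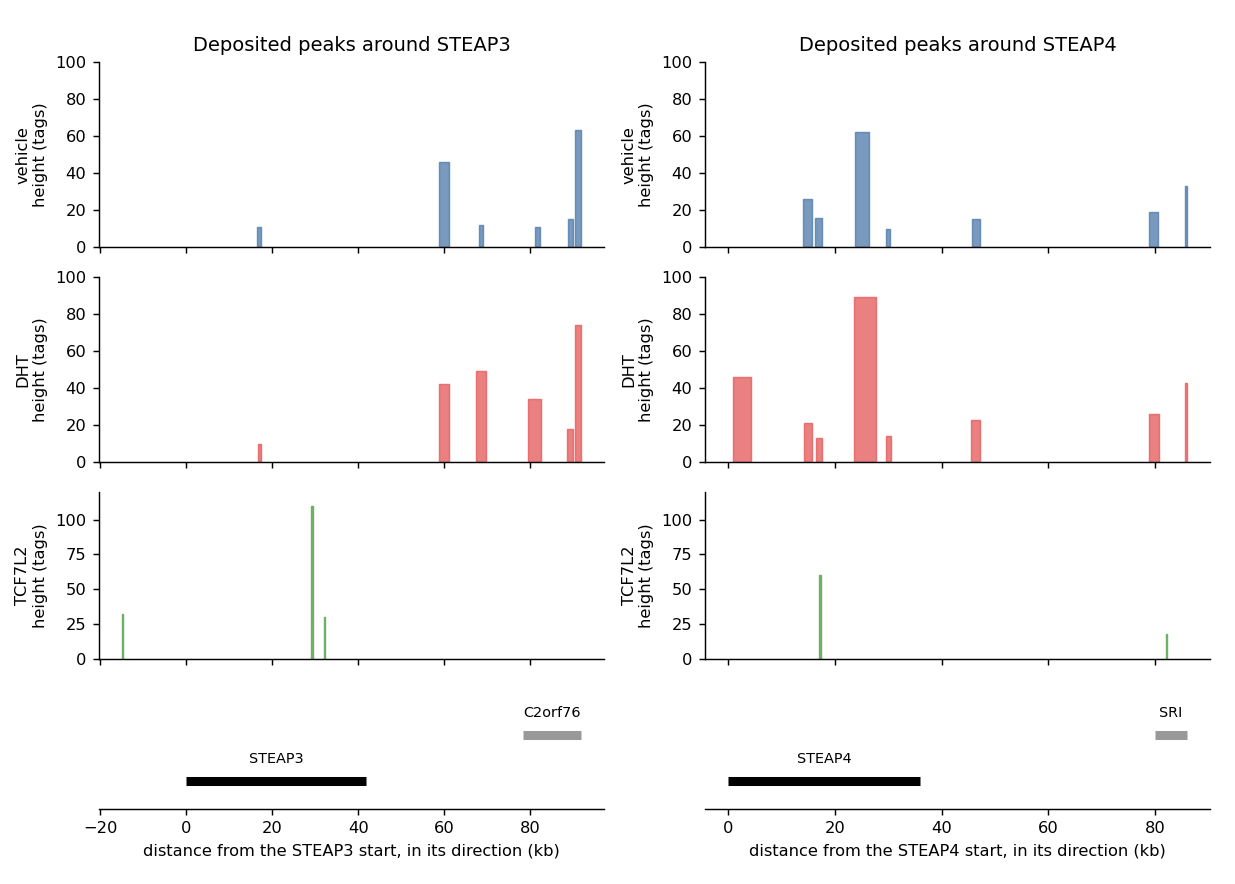
Peaks in the windows of STEAP3 (left) and STEAP4 (right), drawn as in the map of STEAP1 and STEAP2, with the x axis in kb from each gene's start in its own direction and heights in tags; member genes black, neighbours grey and cut at the window. At STEAP4 the DHT block of 46 tags just after the start has no vehicle block above it, and at STEAP3 the blocks at 68.5 and 80.9 kb are taller with DHT (49 and 34 tags) than with vehicle (12 and 11 tags), while the TCF7L2 block of 110 tags stands where no H3K27Ac block does.

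Over the family, 22 of the 23 DHT peaks overlapped a vehicle peak. Of these 22, 2 were taller past the fold, 5 were lower and 15 were neither. The taller ones lay downstream of STEAP3, and the lower ones lay in the windows of STEAP1 and STEAP2. There were 11 scaled ratios above 1 and 11 below, with a median of 0.93. Over all shared peaks 11.3% were taller and 10.2% lower. The split by locus is partly set by height, as DHT heights ran from 10 to 213 tags. Shared peaks here with 152 tags or more with vehicle could not be called taller, and those with 12 tags or fewer could not be called lower. Without scaling the balance of the family turned round, with 3 taller (the added one of STEAP4, 15 to 23 tags) and 2 lower, where 14.4% of all shared peaks were taller and 7.61% lower. No test is possible with 1 library, and the peaks of a locus are not independent of each other. None of the 4 genes passed the fold by its tallest peak, where 6.43% of 18028 genes were taller and 2.95% lower. For STEAP1 and STEAP2, with 179 tags with vehicle, a taller call was out of reach, as no DHT peak exceeded 213 tags. The scaled ratios by tallest peak were 1.03 for STEAP1 and for STEAP2, 1.1 (0.77 to 1.56) for STEAP3 and 1.34 (0.96 to 1.89) for STEAP4, and the median over genes was 1.02. The tallest peak alone therefore did not show the lower intron peaks of STEAP2 or the gained peak of STEAP4. Nor did it show the taller peaks downstream of STEAP3, which lie between genes and in an intron of C2orf76.

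**Figure D2:**
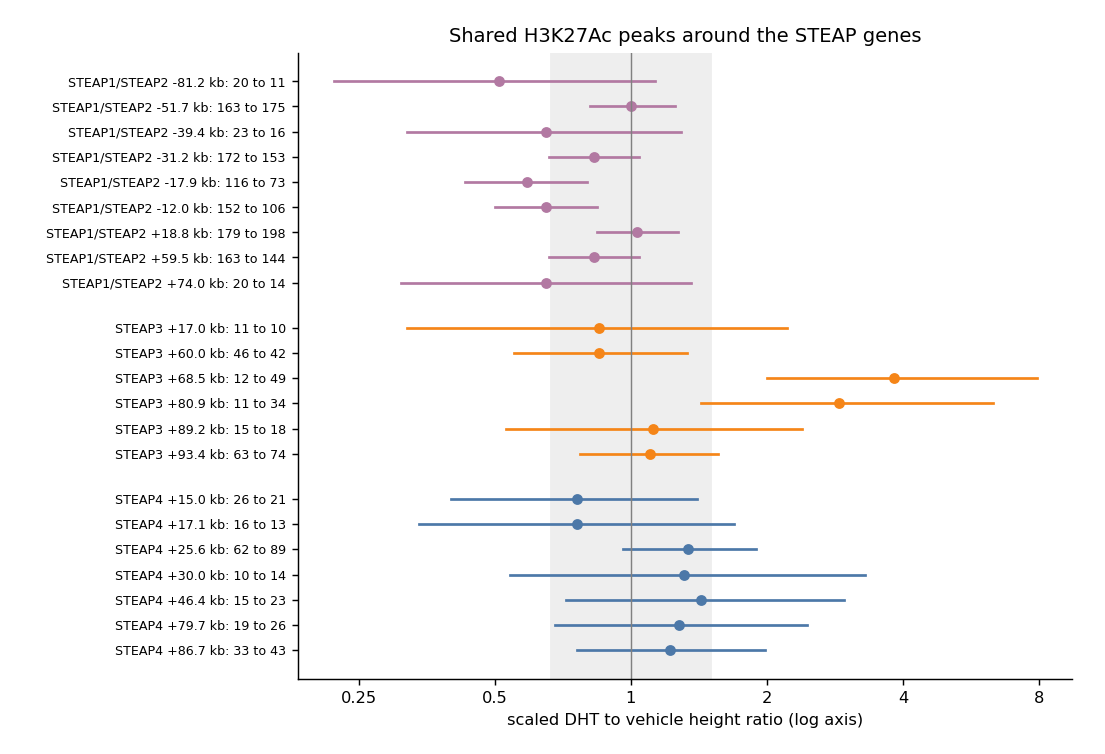
Scaled DHT to vehicle height ratio (x axis, log scale) of the 22 shared H3K27Ac peaks, in order along each locus, with exact 95% counting intervals as lines; row names give the distance of the DHT peak's centre from the start of STEAP2, STEAP3 or STEAP4 and the heights in tags with vehicle and with DHT. The grey band spans ratios within a fold of 1.5. The 2 points farthest right lie downstream of STEAP3 (3.82 and 2.89), and the 5 points left of the band lie in the windows of STEAP1 and STEAP2.

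The androgen receptor binds a response element made of the arms AGAACA and TGTTCT with 3 free bases between them, which reads the same on both strands. Sequences with at most 2 of the 12 fixed bases changed were searched in the windows, and 45 were found in 461.5 kb, or 97.5 per Mb against 77.7 per Mb of the genome. Of these, 15 lay in DHT peaks and 10 in vehicle peaks. The peaks covered from 5.77% (STEAP3) to 64% (STEAP2) of a window with vehicle, and from 7.83% to 60.7% with DHT. Whether the counts exceed what this cover gives was not tested. Over all DHT peaks the density was 85.7 per Mb. With at most 1 base changed there were 4 in the windows, of which 2 lay in DHT peaks and 1 in a vehicle peak, and with no base changed there were 0. The sequences shown are those in the peaks that were gained or taller with DHT, and the one with at most 1 base changed under the STEAP2 start peak, on the plus strand, with both arms in capitals. They lie at chr7:87932985-87933015, chr7:87933079-87933109 and chr7:87934780-87934810 for STEAP4, chr2:120061786-120061816 and chr2:120062330-120062360 for STEAP3 and chr7:89837843-89837873 for STEAP2.
STEAP4 first: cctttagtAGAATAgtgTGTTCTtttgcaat
STEAP4 second: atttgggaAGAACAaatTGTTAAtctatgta
STEAP4 last: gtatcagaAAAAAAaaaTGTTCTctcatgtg
STEAP3 first: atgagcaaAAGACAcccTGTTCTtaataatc
STEAP3 second: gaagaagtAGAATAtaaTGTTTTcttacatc
STEAP2: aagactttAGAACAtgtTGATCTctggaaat
The gained STEAP4 peak held 3 of them, the first with 1 base changed and the other two with 2. Of 9268 DHT peaks of like width (within 20%), 22.1% held at least 1 with at most 2 bases changed, 2.32% held 1 with at most 1 changed, and 0.432% held as many as 3 with at most 2 changed. All 23 DHT peaks of the windows were compared in this way, and this last share was the smallest among them. The C2orf76 intron peak downstream of STEAP3 held 2 with 2 bases changed, both in the part of the peak that was called only with DHT, and 2.54% of peaks of like width held as many. The other taller peak downstream of STEAP3, of 49 tags, held 0. The STEAP2 start peak held 1 with 1 base changed among 4 with at most 2, which 60% of the 25 DHT peaks of like width reached or passed. The 3 tall STEAP2 intron peaks held 0 (73 tags with DHT), 1 (106 tags) and 2 (153 tags), the last as many as 8.65% of peaks of like width. A match of letters is a description and not a bound site.

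TCF7L2 peaks lay in introns of all members but STEAP1, and they fell in acetylated chromatin at STEAP2 but not at STEAP3. All 4 genes had a TCF7L2 peak within 50 kb, as 66.8% of genes did. STEAP2 and STEAP3 had 3 each and STEAP1 and STEAP4 had 2 each, numbers that 25.8% and 42.7% of genes reached or passed. The tallest were 117 tags (96.8 to 140) in the STEAP2 intron, which is also within 50 kb of STEAP1, 110 tags (90.4 to 133) in the STEAP3 intron and 60 tags (45.8 to 77.2) in the STEAP4 intron. The first 2 did not differ beyond their intervals, and the last was lower than both.

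The STEAP2 intron peak of 117 tags and another of 51 tags stood 1 after the other in the acetylated peak of 172 and 153 tags, the tall intron peak that stayed within the fold with DHT. A TCF7L2 peak of 22 tags lay over the CFAP69 start in the acetylated peak of 179 and 198 tags. At STEAP4 the 60-tag peak lay in a weak acetylated peak, which had 16 tags in the vehicle list and 13 in the DHT list, and one of 18 tags in an SRI intron lay 1.38 kb from the nearest vehicle peak. The 3 TCF7L2 peaks of STEAP3, 110, 32 and 30 tags, lay between 11.6 and 31.2 kb from the nearest H3K27Ac peak. Thus 4 of the 8 TCF7L2 peaks overlapped an H3K27Ac peak of either list, where 34.5% of all TCF7L2 peaks did. The TCF7L2 library came from cells in serum that was not stripped, and peaks were called with a looser false discovery rate than for H3K27Ac, so that serum, passage and calling cannot be told apart from the difference between the marks.

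The 300 bases at the centre of the tallest TCF7L2 peak of each locus are shown on the plus strand, from chr7:89808210-89808509 for STEAP2, chr2:120010440-120010739 for STEAP3 and chr7:87918870-87919169 for STEAP4. Capitals mark CTTTGAT and CTTTGAA, the forms that TCF7L2 and its relatives bind, on either strand.
STEAP2: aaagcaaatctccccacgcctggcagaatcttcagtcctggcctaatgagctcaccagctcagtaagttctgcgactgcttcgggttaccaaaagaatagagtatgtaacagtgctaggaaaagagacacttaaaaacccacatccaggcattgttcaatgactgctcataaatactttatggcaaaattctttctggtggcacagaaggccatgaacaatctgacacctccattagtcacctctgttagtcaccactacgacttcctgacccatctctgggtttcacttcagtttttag
STEAP3: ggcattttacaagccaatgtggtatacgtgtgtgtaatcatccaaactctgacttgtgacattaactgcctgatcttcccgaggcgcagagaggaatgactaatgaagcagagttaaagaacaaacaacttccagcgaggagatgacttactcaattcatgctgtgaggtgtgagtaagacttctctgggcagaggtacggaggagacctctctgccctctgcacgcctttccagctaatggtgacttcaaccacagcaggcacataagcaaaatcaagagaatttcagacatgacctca
STEAP4: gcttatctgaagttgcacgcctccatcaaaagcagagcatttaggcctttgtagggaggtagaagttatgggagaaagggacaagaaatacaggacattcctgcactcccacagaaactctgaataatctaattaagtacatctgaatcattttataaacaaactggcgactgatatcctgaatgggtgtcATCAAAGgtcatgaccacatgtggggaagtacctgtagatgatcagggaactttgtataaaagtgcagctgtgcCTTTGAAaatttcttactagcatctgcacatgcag
The STEAP4 centre held both forms, CTTTGAT on the minus strand 44.5 bp and CTTTGAA on the plus strand 118 bp from the peak's centre. The STEAP2 and STEAP3 centres, with more tags, held neither. Over all 20955 TCF7L2 peaks, 15.1% of such centres held CTTTGAT, 16% held CTTTGAA and 29.1% held either, and among the 8 of the family it was this 1. The forkhead form TGTTTAC, which FOXA1 binds, was in 5.71% of all centres and in 1 of the 8, the STEAP3 peak of 30 tags, 35.5 bp from its centre. The first 6 letters of the TCF forms are the same, and none of these matches overlapped another.

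Outside the family, the genes whose 3 tallest peaks were most like those of a member were found by distance on the log2 scale over the 3 libraries. For STEAP1 and STEAP2 these were EHF (172, 196 and 119 tags with vehicle, DHT and TCF7L2, distance 0.0638), an epithelial transcription factor, IL6R (162, 181 and 130 tags, 0.245), the interleukin 6 receptor, and SLC25A45 (161, 165 and 121 tags, 0.306). For STEAP3 they were PRKCZ (62, 75 and 111 tags, 0.0324), an atypical protein kinase C, and the neighbours PSTK and IKZF5, which had the same peaks (64, 71 and 110 tags, 0.063). For STEAP4 they were NECTIN1 (61, 90 and 60 tags, 0.0281), a cell adhesion protein, and ACYP2 (64, 92 and 58 tags, 0.0811). The likeness rests on 3 values a gene, and for STEAP3 both H3K27Ac values come from a peak in C2orf76 at the window's edge.

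Other genes of iron and copper handling were examined as a list of 51, which included transferrin and its receptors, metal carriers, ferritins, the hepcidin pathway, heme transport and copper chaperones. Of the 49 with a peak in both lists, 1 was taller past the fold, 3 were lower and 45 were neither, with a median scaled ratio of 1.03 where all genes had 1.02. The 2.04% that were taller and 6.12% that were lower stand beside 6.43% and 2.95% of all genes, and rest on 4 genes. SCO1, which brings copper to cytochrome c oxidase, was the taller one, with 41 tags with vehicle and 82 with DHT at its start (scaled ratio 1.87, 1.27 to 2.79). The 3 lower ones were CYBRD1, another iron reductase of the membrane, with 30 and 20 tags (0.62, 0.34 to 1.14), HEPHL1, a relative of the iron oxidase hephaestin, with 81 and 56 tags (0.65, 0.45 to 0.92), and SLC31A2, a copper carrier, with 46 and 30 tags (0.61, 0.37 to 0.99). None of these 3 had an H3K27Ac peak over a start in either list, so that their values come from peaks elsewhere within 50 kb. The tallest peak of STEAP1 and STEAP2 (179 and 198 tags) was taller than that of every gene of the list, whose tallest reached 139 tags with vehicle and 150 with DHT, and whose medians were 65 and 70 tags. STEAP3 and STEAP4, with 63 and 62 tags with vehicle, stood near that median. The STEAP3 value is that of a peak in C2orf76 at the window's edge, and with 10 kb around the gene it was 11 tags.

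**Figure D3:**
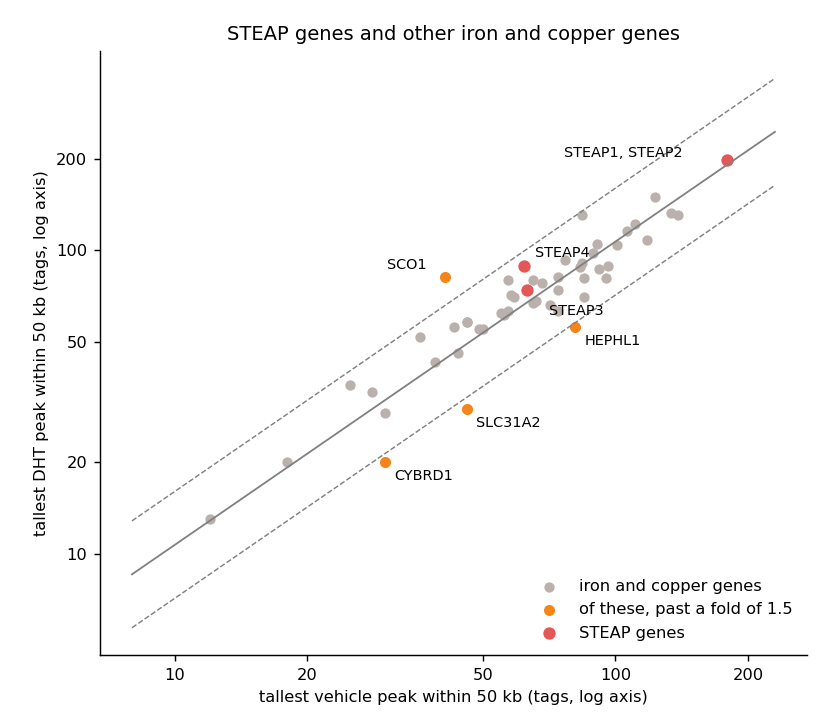
Tallest H3K27Ac peak within 50 kb with vehicle (x axis) and with DHT (y axis), in tags on log axes, for 49 iron and copper genes (grey, orange where past the fold) and the STEAP genes (red). The solid line is the scaling of 1.069 and the broken lines a fold of 1.5 on either side. STEAP1 and STEAP2 share the point at 179 and 198 tags, above all genes of the list, and STEAP3 and STEAP4 lie among the others.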

How the data were processed

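ChIP-seq of LNCaP cells gave 3 peak lists: H3K27Ac with vehicle, H3K27Ac with 10 nM DHT for 4 h, and TCF7L2, with 1 library each and no pooling. The authors aligned reads to hg19 and called peaks with Sole-search. By the paper, Bowtie 2 was used for H3K27Ac and the ELAND pipeline for TCF7L2, whereas the submitters' processing notes name CASAVA 1.8.2, Bowtie2 and BWA. The deposited value of a peak is a signal, the height of its tag pileup in whole tags, and no scaling to read number is stated for it. The labels give 10% serum for the TCF7L2 cells, and the paper gives a lower percentage. The depth of each library is unknown.

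Genes came from GENCODE release 44 mapped to GRCh37. Peaks overlapped from 1 bp, each DHT peak was paired with the vehicle peak of largest overlap, and a pair was counted where its DHT peak lay in a window. Heights have exact Poisson and ratios exact binomial intervals at 95%, which treat tags as independent although a height is a maximum. With 1 library a condition, no test was made. Likeness used log2 of height plus 1 and genes over 1 Mb from every member. The members and lists were chosen with earlier results of these data known. Named are the members with every peak, their neighbours, the 3 genes most like each member, STEAP1B and each listed iron and copper gene past the fold, besides genes that check the cells or DHT. One gene that this rule names is not reported here. Of 51 iron and copper genes, 51 were matched. Promoter and peak sequences were read from GRCh37. The overlap code was tested on simulated data of 2400 peaks, and its difference from bedtools 2.31.1 was 0. Alternatives were windows of 10 and 100 kb, other scalings, folds, overlaps, ranks for ties and top lists. Scripts ran under Python 3.11.15 with scipy 1.17.1, pandas 2.3.3, numpy 2.4.6 and matplotlib 3.10.9, besides samtools 1.23.1.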

Additional observations from a re-analysis of the deposited data

How the results depend on the processing

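Of 219 alternative values, 181 stayed within their counting interval or within 1.5 times the count, and 38 moved. A change of direction was looked for only at single shared peaks past the fold, under other scalings. None turned round, but these scalings change a ratio too little for that, so that the check shows nothing. With 10 kb around a gene, H3K27Ac peak numbers were 2 (vehicle) and 2 (DHT) for STEAP1, 6 (vehicle) for STEAP2 and 1 and 1 for STEAP3, TCF7L2 peak numbers were 0 for STEAP1 (tallest 0) and 1 for STEAP4, and the tallest STEAP3 peaks were 11 and 10 tags (ranks 48810 and 58983.5). With 100 kb, STEAP3 had 10 and 11 peaks, the tallest of 95 and 127 tags (ranks 2343 and 888.5). Among the top 25000 peaks of each list, STEAP2 had 7 vehicle peaks, STEAP3 2 vehicle peaks and STEAP4 3 and 3, and among the top 15000 TCF7L2 peaks STEAP4 had 1. Summed heights gave ratios of 0.83 for STEAP1 and 0.70 for STEAP2, and 0.82 for STEAP2 without the vehicle peak that crosses the window's edge, an alternative chosen after seeing the data. A looser fold, a difference of 25%, called 1 STEAP gene (STEAP4) and 6 shared peaks taller, and 5 iron and copper genes taller and 6 lower. A fold of 2 called 0 shared peaks lower, and 0 iron and copper genes taller and 0 lower. Without scaling, 2 shared peaks were lower and 2 iron and copper genes taller, and with 10 kb 2 of these genes were taller. Androgen response element sequences in H3K27Ac peaks fell from 15 to 2 with at most 1 base changed and 0 with none. STEAP3 and STEAP4 have no peak over a start, so that this alternative gave no value for them. Counting a pair where either peak lay in a window, an alternative chosen after seeing the data, gave 24 pairs with 6 lower. The added lower pair sets the vehicle peak of 171 tags at the STEAP2 window's edge against a DHT peak of 11 tags. That vehicle peak also overlaps a DHT peak of 143 tags, a pair within the fold (scaled ratio 0.78). No library could be left out, as each condition had 1. No paired analysis was possible because no result comes from a test.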
